A study of Mus musculus with 18 samples.

Results

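Matrix metalloproteases (MMP), the ADAM and ADAMTS families and the TIMP inhibitors were followed in 2 kinds of culture. In ES/PA6 co-cultures mouse embryonic stem (ES) cells lay on a layer of PA6 stromal cells, and PA6 mono-cultures held the stromal cells alone. Members were the array probes whose gene name in the table is MMP, TIMP, ADAMTS or ADAM with a number and whose detection p-value was under 0.05 on at least 3 of the 18 arrays. Of 140 probes of 74 genes named so, 56 probes of 39 genes were kept: 14 of 23 MMP, 12 of 18 ADAMTS, 9 of 29 ADAM and 4 of 4 TIMP genes. All genes together gave 22987 kept probes out of 45281 and 16446 genes tested.

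RNA was collected on day 3 in serum-free medium from 6 groups of 3 arrays. Each kind of culture received no growth factor (-GFs), 20 ng/ml of FGF2 or 10 ng/ml of BMP4 from the start. The BMP4 dose is the one in the labels, and the methods describe a lower one for cultures on slides. Every co-culture used a single ES line that carries EGFP knocked in at the τ locus and had been kept before on embryonic fibroblast feeders, and every group held the same PA6 line, so that the RNA of a co-culture came from both cell types. Per the labels each replicate number is a biological replicate with 1 well per condition, and p-values measure the spread between such wells. Illumina MouseWG-6 v2.0 bead arrays gave 1 fluorescence intensity per probe. It is reported as normalised log2 intensity, and the probe with the highest mean over the arrays stands for its gene, so that levels are compared between groups and not between genes.

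MMPs are secreted or membrane-bound zinc proteases that are made as inactive proenzymes and cut collagens, gelatins, proteoglycans and other matrix proteins. ADAMs sit in the plasma membrane, where several of them shed growth factors and receptors, and the secreted ADAMTS proteases process procollagens and cut matrix proteoglycans such as versican and aggrecan. TIMPs bind the active site of these enzymes. In the bone marrow and around growing vessels, stromal and endothelial cells use this machinery to remodel the matrix.

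In the mouse genome 10 Mmp genes lie in a cluster on chromosome 9. Of these Mmp3, Mmp13 and Mmp1a were detected on enough arrays to be tested (10, 7 and 18 arrays). MMP10 and the other 6 (MMP12, MMP1B, MMP8, MMP27, MMP20 and MMP7) were detected on 0 arrays by their best probe. The RefSeq promoter table (GRCm38.p6) held 24 promoters of 23 of the 39 members, since a gene can have several start sites. Mmp2 and Mmp9 were among the members without a promoter in it, so theirs were not searched. The letters TGAGTCA, a binding motif of AP-1, were searched on both strands of the 250 bases before the start site. They stood in 3 of 24 member promoters (12.5%), those of Mmp3, Mmp13 and Mmp1a, and in 4.46% of all 32851 promoters. Within the cluster 7 of 10 genes had it. AGGAAG, the motif of PEA3 and other ETS factors, stood in 37.5% of member promoters and 29.5% of all, and TATAAA in 16.7% and 12.4%. The promoters of these 3 neighbours and of Timp1 are shown because Mmp3 and Timp1 rose with FGF2 in mono-cultures. Mmp13 and Mmp1a, with the same letters as Mmp3, were not called there. Mmp13 was near the detection limit, with 0 of 3 mono-culture arrays detected without growth factors and 1 of 3 with FGF2 (means of 6.20 and 6.16). Each line runs 5′ to 3′ over the last 200 bases before the start site, on the + strand, and capitals mark TGAGTCA or its reverse complement.
Mmp3, chr9:7445622-7445821: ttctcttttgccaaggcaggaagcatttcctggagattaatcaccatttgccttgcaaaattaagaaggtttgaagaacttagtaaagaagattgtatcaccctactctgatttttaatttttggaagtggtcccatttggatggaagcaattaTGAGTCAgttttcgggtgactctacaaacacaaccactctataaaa
Mmp13, chr9:7272314-7272513: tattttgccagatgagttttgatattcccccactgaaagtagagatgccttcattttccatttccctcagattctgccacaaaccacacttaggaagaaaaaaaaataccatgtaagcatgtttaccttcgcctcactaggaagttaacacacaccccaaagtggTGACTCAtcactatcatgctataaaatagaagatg
Mmp1a, chr9:7463941-7464140: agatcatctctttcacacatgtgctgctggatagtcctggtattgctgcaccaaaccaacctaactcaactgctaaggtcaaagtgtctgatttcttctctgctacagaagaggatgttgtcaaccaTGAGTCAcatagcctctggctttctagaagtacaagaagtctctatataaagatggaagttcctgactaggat
Timp1, chrX:20869966-20870165: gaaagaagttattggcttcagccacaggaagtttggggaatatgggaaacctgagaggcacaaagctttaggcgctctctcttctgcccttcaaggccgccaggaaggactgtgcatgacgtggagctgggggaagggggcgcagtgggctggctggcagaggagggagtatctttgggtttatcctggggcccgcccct
In Mmp3 the letters began 46 bases before the start, in Mmp13 35 (on the opposite strand) and in Mmp1a 73. The Timp1 window held none and had AGGAAG at 175 and 99 bases before the start. That ETS motif did not set Timp1 apart, since it also stood in the windows of Mmp3 (at 183) and Mmp13 (at 109 and 62). Such a match describes the letters only.

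Of the 39 genes, 18 were detected on all 18 arrays by the probe that stands for them: the gelatinase MMP2, MMP1A, MMP11, MMP14, MMP24, TIMP1, TIMP2, TIMP3, ADAMTS1, ADAMTS2, ADAMTS4, ADAMTS7, ADAMTS9, ADAMTS12, ADAM9, ADAM15, ADAM17 and ADAM23. A further 8 were detected on co-culture arrays and on none of the 9 mono-culture arrays (MMP15, MMP19, MMP23, MMP25, TIMP4, ADAMTS8, ADAMTS13, ADAMTS19), and 3 the other way round (ADAM32, ADAMTS10, ADAMTS16). The remaining 10 were detected on part of the arrays of both kinds. Detection did not always follow the level. Without growth factors MMP19 had a mean of 5.95 in co-cultures (3 of 3 arrays detected) and 6.16 in mono-cultures (0 of 3). ADAMTS13 had 6.00 (2 of 3) and 6.02 (0 of 3). Co-culture arrays detected 19365 to 20412 probes each, and mono-culture arrays 17125 to 18391. At the edge of the rule stood the probes of ADAMTS8, MMP19 and TIMP4 with detection on exactly 3 arrays, and a second probe of ADAM23 and the probe of ADAM26A with detection on 2 were outside it. ADAM10, which with ADAM17 is a main sheddase, was detected on 0 arrays and was not tested, and ADAMTS5 was not measured under that name.

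The marker genes matched the labels. The summed linear intensity of 8 pluripotency genes (among them POU5F1, SOX2 and NANOG) was 38728 to 58020 on co-culture arrays and 363 to 475 on mono-culture arrays. The sum over 10 stromal genes (COL1A1, DCN, POSTN and others) was 54065 to 88827 in co-cultures and 142656 to 175307 in mono-cultures. Among the co-cultures without growth factors replicate 3 had the lowest stromal sum, 64821 against 86195 and 88827. Detected probes ranged from 17125 to 20412 per array, and arrays of a group correlated at 0.981 to 0.992.

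FGF2 raised a small set of members in the stroma and 2 of them, MMP9 and TIMP1, in the co-cultures too. A gene was called when its adjusted p-value (limma, Benjamini-Hochberg over all genes tested) was under 0.1 and its log2 fold change over 1 in size. In PA6 mono-cultures 7 of 39 members rose with FGF2 and 0 fell, beside 5.27% of all genes called (2.71% higher, 2.56% lower). In ES/PA6 co-cultures 2 rose and 2 fell, beside 3.34% of all genes (2.14% higher, 1.2% lower). With the replicate number as a block 5 were called there, MMP3 being the one added. The median change over the members was 0.02 in mono-cultures and 0.10 in co-cultures (log2), against -0.01 over all genes in both. BMP4 called 1 member in mono-cultures (1.41% of all genes called, 0.839% higher) and 0 in co-cultures (0.76%), where 6 members and 10.9% of all genes had an unadjusted p-value under 0.05 by limma.

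**Figure D1:**
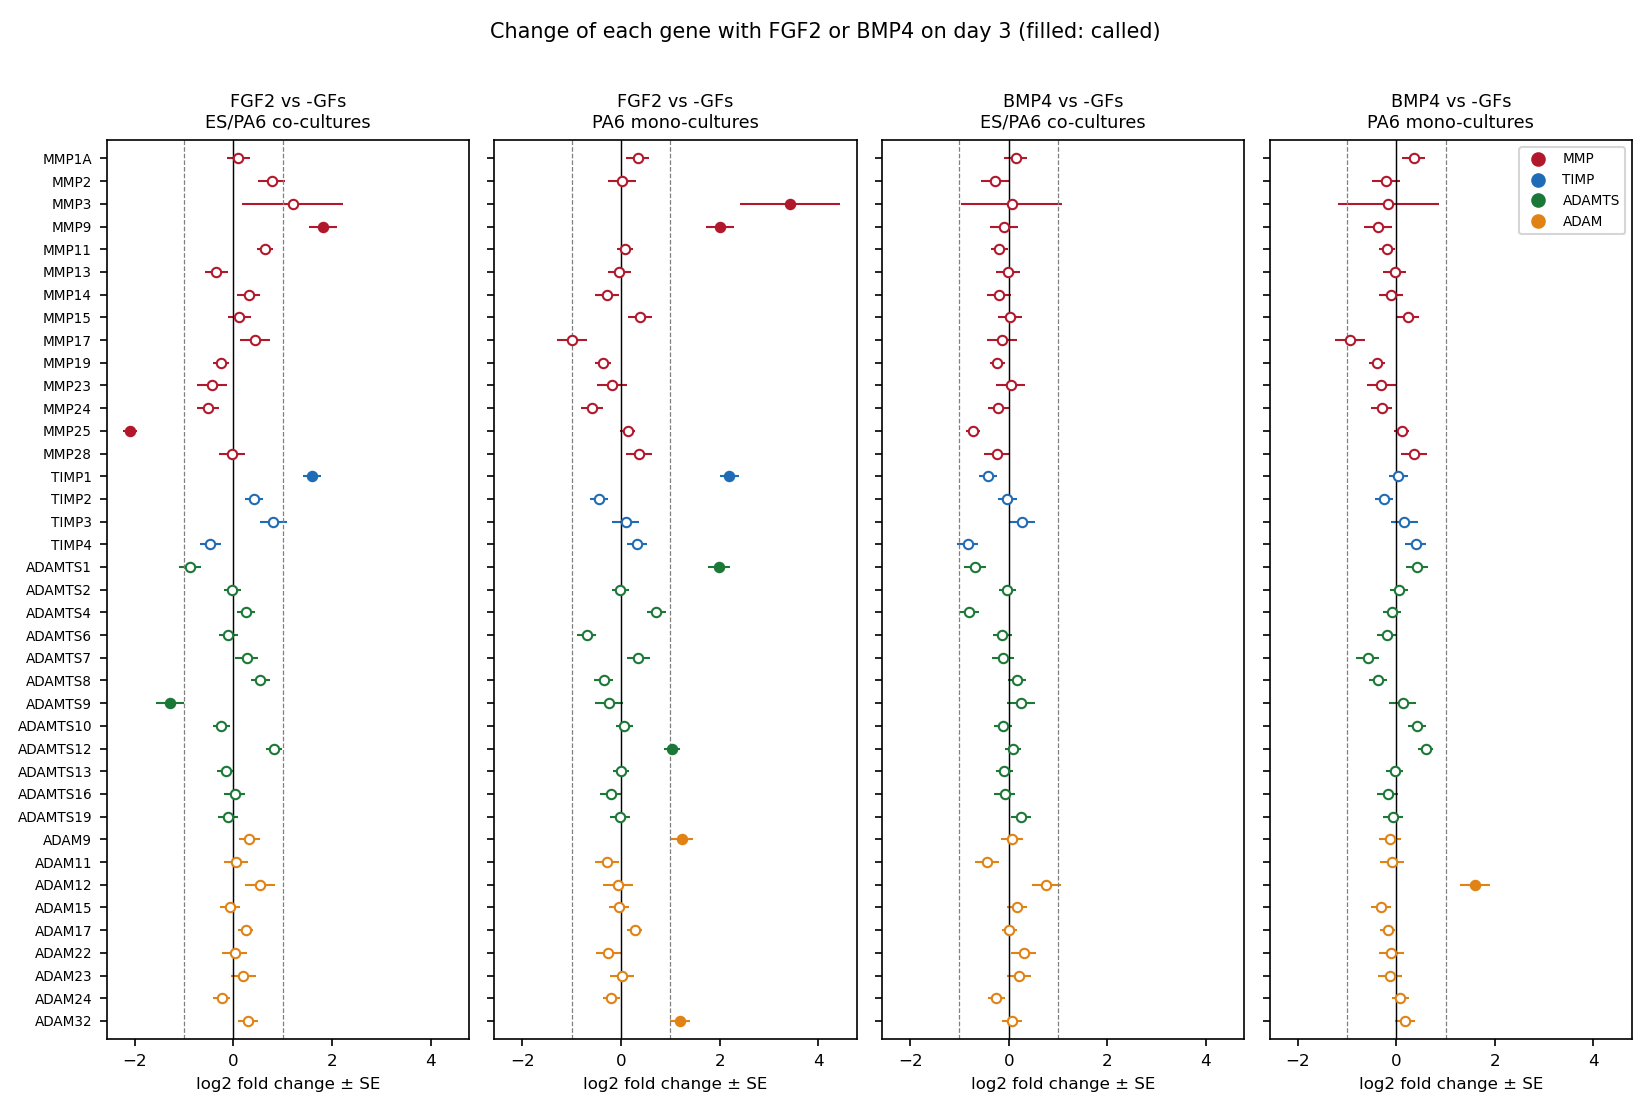
Log2 fold change with its standard error (x axis) of each of the 39 genes (rows, coloured by family) with FGF2 or BMP4 against -GFs, in co-cultures and mono-cultures, 3 arrays per group. Filled points were called, and dashed lines mark a log2 fold change of 1: the calls are 4 (FGF2, co-cultures), 7 (FGF2, mono-cultures), 0 (BMP4, co-cultures) and 1 (BMP4, mono-cultures).

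Among the inhibitors TIMP1, a secreted TIMP that also binds the MMP9 proenzyme, rose with FGF2 in both culture types. Its log2 intensity in mono-cultures was 13.49, 13.39 and 13.41 without growth factors and 15.53, 15.76 and 15.60 with FGF2. In co-cultures it was 13.80, 13.53 and 13.14 without and 15.34, 15.28 and 14.63 with FGF2. The groups did not overlap in either culture type. The change was 2.20 ± 0.190 (log2, SE; adjusted p = 1.16e-06), or 4.59-fold, in mono-cultures and 1.59 ± 0.190 (adjusted p = 8.66e-05), or 3.02-fold, in co-cultures. With BMP4 the values were 13.67, 13.32 and 13.42 in mono-cultures and 13.27, 13.01 and 12.93 in co-cultures, and neither change was called (0.04 and -0.42). A second TIMP1 probe gave 2.26 and 1.53 for the FGF2 changes.

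The other TIMPs were not called with either factor. TIMP2, which with MMP14 takes part in the activation of the MMP2 proenzyme, changed by -0.45 with FGF2 in mono-cultures and 0.42 in co-cultures (adjusted p = 0.13 and 0.243). The difference between these changes, 0.86 ± 0.261, had an adjusted p of 0.0465 but stayed under the fold threshold, which it passed without co-culture FGF2 replicate 3. TIMP3, the matrix-bound inhibitor that also blocks ADAM17 and aggrecanases, had 13.15, 13.86 and 14.42 in co-cultures without growth factors and 14.80, 14.59 and 14.48 with FGF2. Its change of 0.81 ± 0.269 (adjusted p = 0.0935) was under the fold threshold, and its 3 probes gave 0.81, 1.03 and -0.02. The without-factor arrays alone spanned 13.15 to 14.42, and the change passed the threshold without replicate 3 of that group. TIMP4 was near the detection limit, with changes of -0.47 (FGF2) and -0.83 (BMP4) in co-cultures. The latter passed the threshold without replicate 3 of the co-cultures without growth factors.

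MMP9, the gelatinase B that cuts denatured and basement membrane collagens, rose with FGF2 in both culture types. Its log2 intensity was 6.57, 6.68 and 7.10 in mono-cultures without growth factors and 8.98, 8.83 and 8.57 with FGF2, a change of 2.01 ± 0.284 (adjusted p = 0.000129). In co-cultures the values were 7.25, 6.86 and 6.55 without and 9.27, 8.81 and 8.04 with FGF2, a change of 1.82 ± 0.284 (adjusted p = 0.000898). No FGF2 array overlapped with an array of the -GFs group. BMP4 left values of 5.86 (not detected), 6.64 and 6.72 in mono-cultures and 6.94, 6.78 and 6.66 in co-cultures, with no call.

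MMP3, stromelysin-1, which cuts proteoglycans and activates other MMP proenzymes, had the largest fitted change of the members in mono-cultures. It was not detected on any PA6 array without growth factors (5.71, 5.04 and 5.78) or with BMP4 (5.36, 5.23 and 5.45), and FGF2 gave 9.03, 8.11 and 9.68. The fitted change was 3.43 ± 1.02 (adjusted p = 0.0327). Against the lowest signal of detected probes this is at least 6.23-fold. All 3 MMP3 probes rose, by 3.43, 3.34 and 2.96. The call was lost without replicate 2 of the PA6 -GFs arrays or replicate 3 of the FGF2 arrays, and the large SE carries the spread of the co-cultures described next.

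In co-cultures MMP3 differed more between replicate numbers than between treatments. Replicate 2 was not detected without growth factors (5.18) or with BMP4 (5.31) and reached 6.70 with FGF2, while replicates 1 and 3 gave 9.11 and 8.23 without, 9.04 and 8.35 with BMP4, and 10.18 and 9.25 with FGF2. Within each replicate number FGF2 added 1.06, 1.53 and 1.02, and BMP4 changed it by -0.07, 0.13 and 0.12. The unpaired change of 1.20 ± 1.02 was not called (adjusted p = 0.629). The co-culture arrays of 1 number deviated together over all genes (correlations of 0.325 to 0.521). With the number as a block the same change had an SE of 0.20 and an adjusted p of 0.00195 and was called.

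**Figure D2:**
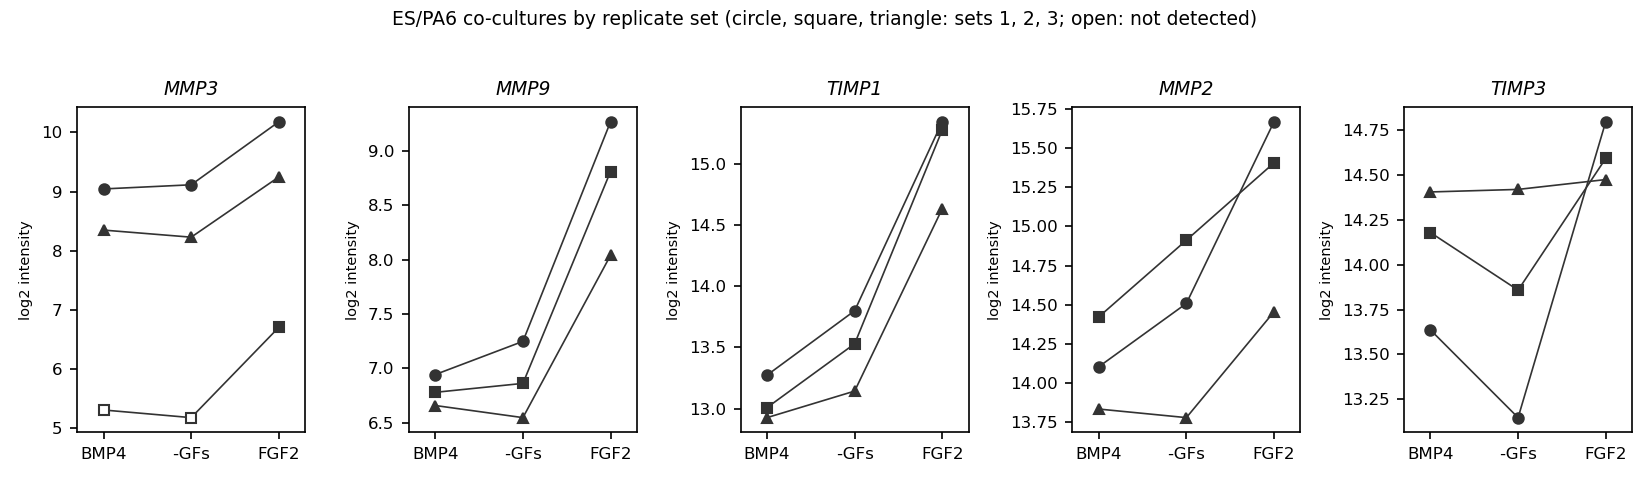
Log2 intensity (y axis) in the ES/PA6 co-cultures by treatment (x axis), with a line and a symbol for each replicate number and open symbols where the probe was not detected. MMP9 and TIMP1 rose with FGF2 in all 3 replicate sets by 1.49 or more, MMP3 was higher with FGF2 in each set by 1.02 or more, and TIMP3 by 0.05 to 1.65.

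The gelatinase MMP2 and its membrane activator MMP14 were not called for FGF2 or BMP4 against -GFs. MMP2 in co-cultures was 14.51, 14.91 and 13.78 without growth factors, 15.67, 15.41 and 14.46 with FGF2 and 14.10, 14.42 and 13.84 with BMP4. Its FGF2 change of 0.78 ± 0.279 (adjusted p = 0.128) was positive in all 3 replicate sets and passed the threshold when replicate 2 without growth factors or replicate 3 with FGF2 was left out. In mono-cultures MMP2 lay between 15.65 and 16.03 on all 9 arrays. Its probe reached a raw intensity of 69616, and whether the probe was saturated was not tested. MMP14 changed by 0.31 and -0.28 with FGF2 and by -0.19 and -0.11 with BMP4 in co-cultures and mono-cultures.

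MMP25, a GPI-anchored membrane MMP first known from leukocytes, fell with FGF2 in co-cultures. It stood at 7.67, 7.83 and 7.53 in co-cultures without growth factors, at 6.95, 6.88 and 7.03 with BMP4, and was not detected with FGF2 (5.79, 5.66 and 5.30). The fitted FGF2 change was -2.09 ± 0.146 (adjusted p = 3.66e-07), a level at least 3.49-fold lower. The BMP4 change of -0.72 ± 0.146 (adjusted p = 0.0293) was under the fold threshold, although the 3 groups did not overlap. MMP25 was not detected on any of the 9 mono-culture arrays. The summed markers of leukocytes and macrophages, of which 3 of 5 were tested, were 987 to 1169 in co-cultures without growth factors, 618 to 1157 with FGF2 and 2369 to 3838 in mono-cultures. Its genes went different ways between the culture types: CD14 had a mean of 9.21 in co-cultures and 11.29 in mono-cultures without growth factors (log2), CSF1R 6.26 and 6.86, and CD68 8.57 and 5.42, the last not detected. The part of such cells in the MMP25 signal was not tested.

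Among the secreted ADAMTS proteases ADAMTS1, a versican- and aggrecan-cutting enzyme, rose with FGF2 in mono-cultures and had a negative change in co-cultures. The mono-culture values were 8.62, 8.84 and 8.74 without growth factors and 10.62, 10.70 and 10.86 with FGF2, a change of 1.99 ± 0.226 (adjusted p = 1.62e-05). In co-cultures they were 8.15, 8.22 and 7.41 without and 6.74, 7.11 and 7.30 with FGF2. That change of -0.88 was not called, but the difference between the changes was, at -2.87 ± 0.319 (adjusted p = 3.5e-05). The 3 probes of ADAMTS1 differed in size and not in direction: 1.99, 1.54 and 0.61 in mono-cultures, -0.88, -0.44 and -0.47 in co-cultures. The co-culture change passed the threshold when replicate 3 without growth factors or replicate 3 with FGF2 was left out. The ADAMTS1 means in co-cultures were 7.93 without growth factors, 7.05 with FGF2 and 7.25 with BMP4. The BMP4 change of -0.68 was negative too and not called, and the difference of FGF2 from BMP4, -0.20, was not called.

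ADAMTS9, another proteoglycan-cutting protease, fell with FGF2 in co-cultures. Its values were 11.08, 11.50 and 10.07 without growth factors and 9.76, 9.56 and 9.48 with FGF2, a change of -1.28 ± 0.281 (adjusted p = 0.0108). The groups were apart by the margin of replicate 3, and without replicate 2 of the -GFs arrays the change was -0.97 and no longer called. In mono-cultures ADAMTS9 was 12.39, 12.39 and 12.22 without and 12.48, 11.90 and 11.91 with FGF2 (-0.24, adjusted p = 0.679). With the replicate block the difference between the culture types, -1.04, was called (adjusted p = 0.0246, against 0.114 without the block). The stromal marker sums of the co-cultures were 64821 to 88827 without growth factors and 54065 to 74984 with FGF2, and their part in the fall was not tested.

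ADAMTS12, which cuts cartilage oligomeric matrix protein, rose in mono-cultures from 9.83, 9.76 and 9.70 to 10.94, 10.72 and 10.72 with FGF2 (1.03 ± 0.159, adjusted p = 0.000302). In co-cultures it was 9.0, 9.08 and 8.51 without and 9.70, 9.54 and 9.82 with FGF2. That change of 0.82 ± 0.159 (adjusted p = 0.00476) passed the p threshold but not the fold threshold. The mono-culture change lies so close to the fold threshold that it lost its call without replicate 3 of the -GFs arrays or replicate 1 of the FGF2 arrays and under both normalizations without background correction. The aggrecanase ADAMTS4 was not called against -GFs. Its changes were 0.72 (adjusted p = 0.0161) with FGF2 in mono-cultures and -0.80 (adjusted p = 0.0641) with BMP4 in co-cultures, and the latter was called without replicate 3 of the -GFs arrays. The procollagen N-protease ADAMTS2 moved by at most 0.04 in size in these 4 comparisons, and its lowest adjusted p was 0.98.

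Of the membrane ADAMs, ADAM9, a sheddase, rose with FGF2 in mono-cultures from 11.19, 10.87 and 10.96 to 12.55, 12.01 and 12.17 (1.24 ± 0.218, adjusted p = 0.000951). In co-cultures it was 10.32, 10.25 and 9.50 without and 10.52, 10.33 and 10.19 with FGF2, and the change of 0.32 was not called. The difference between these changes, -0.92 ± 0.309, had an adjusted p of 0.074 and was under the fold threshold, which it passed without co-culture -GFs replicate 3 or FGF2 replicate 1, or without PA6 -GFs replicate 1 or FGF2 replicate 2. ADAM32 was not detected on any co-culture array. In mono-cultures it was detected on 1 of 3 arrays without growth factors (6.08, 6.65 and 6.26) and on all with FGF2 (7.28, 7.34 and 7.98), a change of 1.20 ± 0.202 (adjusted p = 0.000625) that was lost without replicate 3 of the FGF2 arrays and under both normalizations without background correction. ADAM17, the sheddase of TNF, changed by 0.25 and 0.28 with FGF2 and by 0.01 and -0.18 with BMP4, with no call.

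ADAM12, which sheds growth factor precursors and is expressed in mesenchymal cells, was the single member called with BMP4. In mono-cultures it was 8.14, 7.82 and 8.16 without growth factors, 9.39, 9.62 and 9.89 with BMP4 and 8.15, 7.50 and 8.28 with FGF2. BMP4 raised it by 1.60 ± 0.301 (adjusted p = 0.00887), or 3.02-fold, and the BMP4 arrays lay above all others. In co-cultures it was not detected without growth factors and was detected on 2 of 3 arrays with BMP4 (5.67, 6.93 and 6.04). It was also detected on 2 of 3 arrays with FGF2 (6.13, 5.44 and 6.40). Neither change was called (0.77 with BMP4 and 0.55 with FGF2).

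The summed markers of adipocytes moved with the growth factors in the stroma. The sum over the 5 of 7 adipocyte genes tested was 10242 to 13332 in mono-cultures without growth factors, 1520 to 1792 with FGF2 and 26538 to 58681 with BMP4. In co-cultures it was 2335 to 4673, 1678 to 1942 and 6381 to 28326. The mono-culture sums without growth factors and with BMP4 rest mainly on CFD (means of 12.26 and 13.91) and ADIPOQ (11.59 and 13.44). In mono-cultures 4 of the 5 genes were called lower with FGF2, all but PPARG (-0.10). With BMP4 1 was called higher there, and all 5 changes were positive. In co-cultures 1 was called lower with FGF2 and 2 higher with BMP4. The stromal sum in mono-cultures was 155765 to 158623, 151333 to 175307 and 142656 to 155953. The part of these marker changes in the member changes was not tested.

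**Figure D3:**
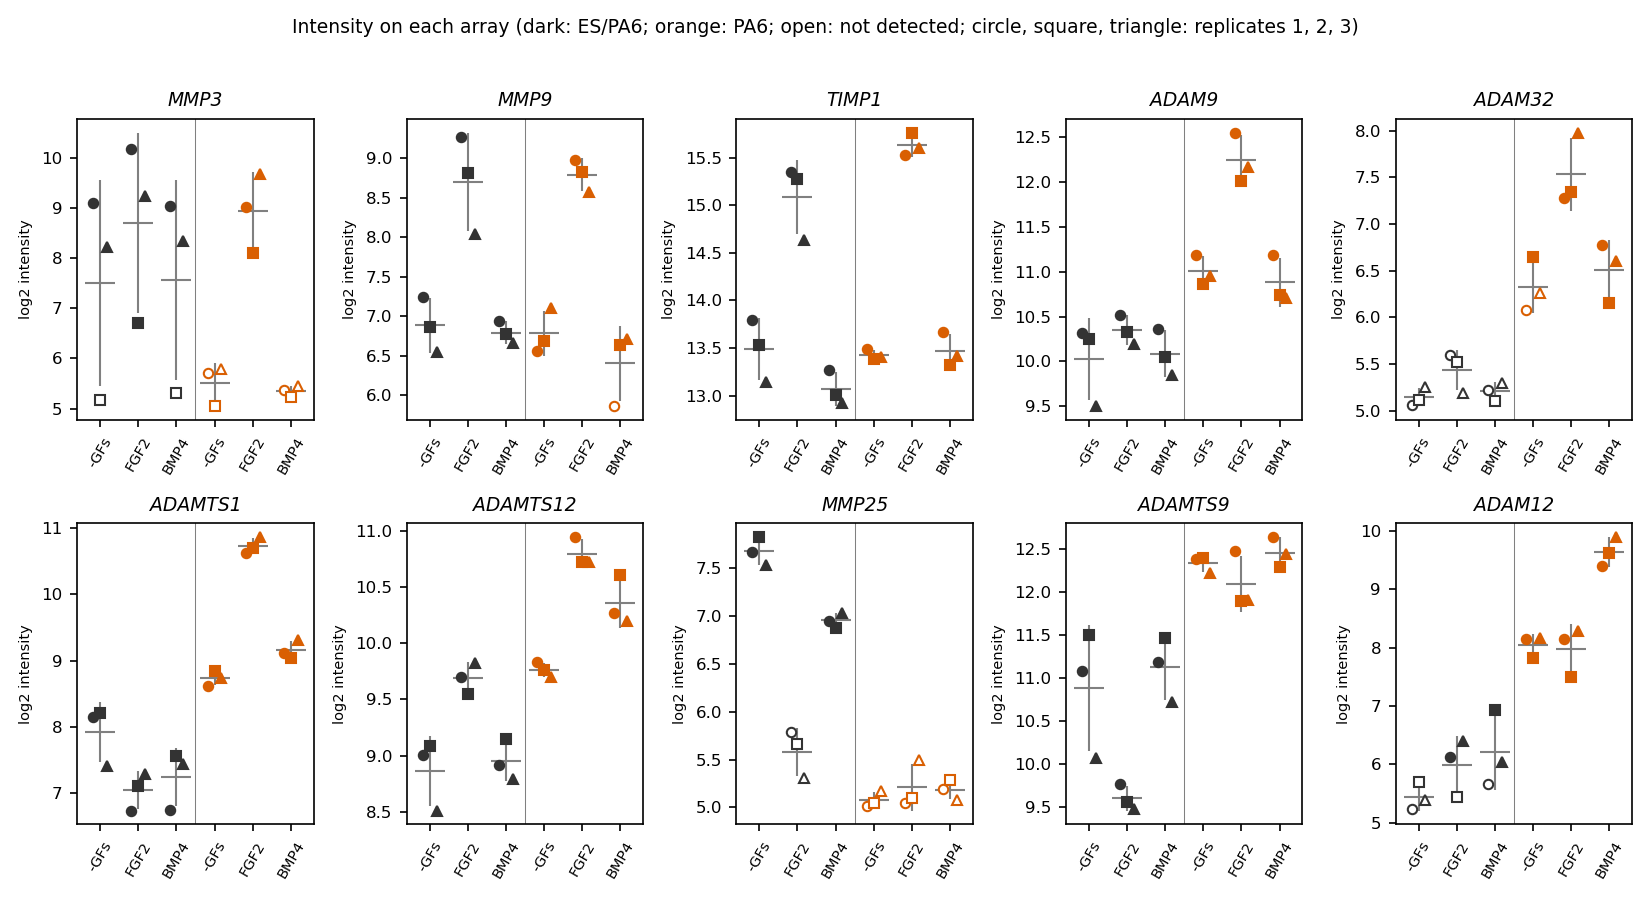
Log2 intensity on each array (points) of the 10 members called for FGF2 or BMP4 against -GFs in at least 1 culture type, with the mean and SD of 3 arrays (grey). MMP3, MMP9, TIMP1, ADAM9, ADAM32, ADAMTS1 and ADAMTS12 stand higher with FGF2 in PA6 mono-cultures, MMP25 and ADAMTS9 stand lower with FGF2 in co-cultures, and ADAM12 stands higher with BMP4 in mono-cultures.

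Set against each other, FGF2 and BMP4 differed in 6 members in co-cultures, beside 2.85% of all genes (1.82% higher with FGF2, 1.03% lower), and in 7 in mono-cultures, beside 5.82% (2.88% higher, 2.94% lower). These comparisons share the FGF2 or BMP4 arrays with the ones above. In co-cultures TIMP1 (2.02), MMP9 (1.91), ADAMTS4 (1.06 ± 0.188, adjusted p = 0.00325) and MMP2 (1.06 ± 0.279, adjusted p = 0.0378) were higher with FGF2, and ADAMTS9 (-1.53) and MMP25 (at least 2.11-fold) were lower. ADAMTS4 and MMP2 were called between the factors, while neither factor was called against -GFs. For ADAMTS4 the BMP4 arrays were 7.78, 8.02 and 7.76, and the FGF2 arrays 8.86, 8.92 and 8.94. MMP3 (1.14) was called here with the replicate block (adjusted p = 0.00322 against 0.652), and the call of MMP2 was lost without FGF2 replicate 1 or 2 or BMP4 replicate 3, and when co-culture arrays were fitted alone. In mono-cultures MMP3 (at least 6.71-fold), MMP9 (2.39), TIMP1 (2.16), ADAMTS1 (1.57), ADAM9 (1.36) and ADAM32 (1.02) were higher with FGF2, and ADAM12 was lower (-1.66). The call of ADAM32 was lost without PA6 FGF2 replicate 3 or BMP4 replicate 2 and under all 3 other normalizations, down to 0.59.

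An interaction contrast tested whether the log2 change with FGF2 differed between co-cultures and mono-cultures. The contrast cannot tell a different response of the cells from the mix of ES and PA6 RNA in a co-culture. It was called for 3 of 39 members, beside 7.39% of all genes (3.99% positive, 3.4% negative): ADAMTS1, MMP25 (-2.22 ± 0.206, adjusted p = 6.58e-06, with no detected signal in mono-cultures) and MMP17 (1.43 ± 0.426, adjusted p = 0.0442). MMP17, a GPI-anchored membrane MMP, was 7.41, 7.38 and 6.82 in mono-cultures without growth factors and 6.27, 6.06 and 6.31 with FGF2, where 1 of 3 arrays was detected (-0.99, adjusted p = 0.0371, just under the fold threshold, and called without -GFs replicate 3 or FGF2 replicate 1 or 3). In co-cultures it was 8.64, 8.25 and 9.09 without and 9.26, 8.69 and 9.35 with FGF2 (0.44). With BMP4 the MMP17 change was -0.94 in mono-cultures and -0.13 in co-cultures, neither called. The FGF2 and BMP4 groups of the mono-cultures had means of 6.21 and 6.27. The interaction of MMP17 was lost without replicate 2 of the co-culture -GFs arrays or replicate 1 of the PA6 -GFs arrays. For MMP9 and TIMP1 the interaction was -0.19 ± 0.402 and -0.60 ± 0.269 and not called. With the replicate block MMP3 (-2.22, adjusted p = 0.000302 against 0.385) was called as well. The BMP4 interaction called 0 members (0.559% of all genes), with 5 members and 9.74% of all genes at an unadjusted p under 0.05 by limma, and 2 with the block: ADAMTS1 (-1.10, adjusted p = 0.0974) and TIMP4 (-1.22, adjusted p = 0.0458).

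**Figure D4:**
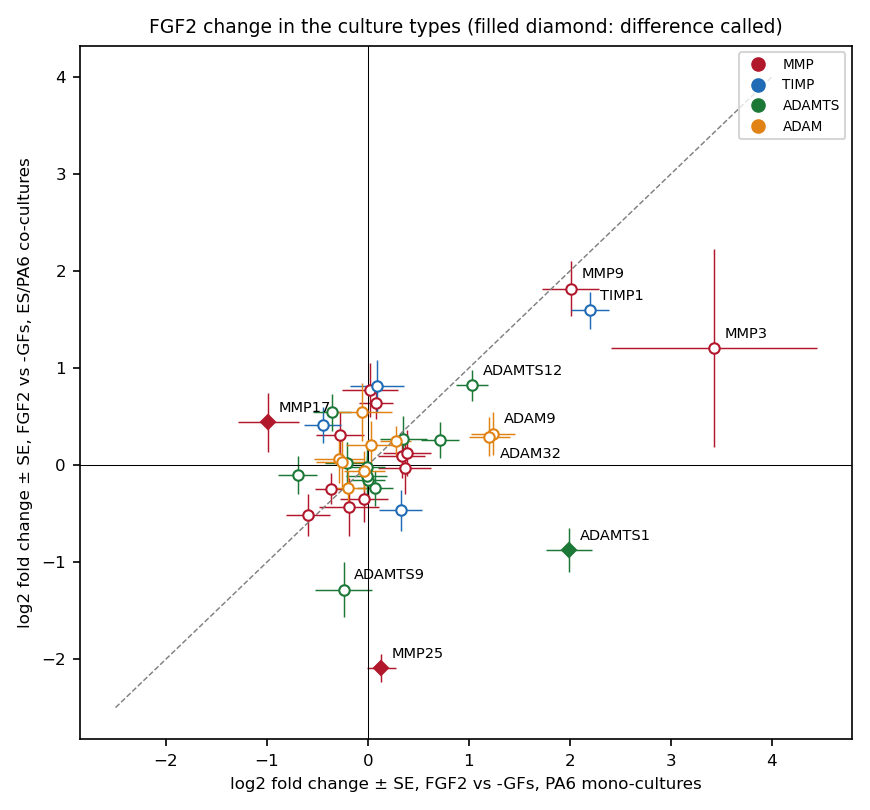
Log2 fold change with SE for FGF2 against -GFs in PA6 mono-cultures (x axis) and in ES/PA6 co-cultures (y axis) for the 39 genes, with a dashed line of equal change. TIMP1 (2.20 and 1.59) and MMP9 (2.01 and 1.82) lie near the line, and filled diamonds mark ADAMTS1, MMP25 and MMP17, whose changes differed between the culture types.

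More members differed between the culture types than with either factor. Between co-cultures and mono-cultures without growth factors 20 of 39 members were called (51.3%), 6 higher and 14 lower in co-cultures, beside 39% of all genes (19.4% higher, 19.5% lower). The member median was -0.24 (log2), against -0.11 over all genes. Among the ADAMTS genes 5 of 12 were lower and 1 higher, among the ADAM genes 4 of 9 were lower and 0 higher, and among the MMPs 4 of 14 were lower and 4 higher. In such mixed cultures fewer PA6 cells and less RNA per PA6 cell cannot be told apart, and 8 of the 10 stromal markers were also lower, with a median of -1.59.

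Among the 14 genes lower in co-cultures the largest differences were those of ADAM12 (at least 4.45-fold lower, not detected in co-cultures without growth factors), TIMP2, MMP14, ADAMTS6 and the membrane protease MMP24. TIMP2 was 12.98, 13.21 and 12.65 in co-cultures and 15.18, 14.94 and 15.03 in mono-cultures (-2.10 ± 0.184, adjusted p = 4.72e-08). MMP14 was 13.28, 13.41 and 12.69 against 15.24, 15.29 and 15.03 (-2.06 ± 0.241). ADAMTS6 (-2.06) and MMP24 (-1.96) were followed by MMP11 (-1.83), ADAM23 (-1.73), ADAMTS2 (-1.63), MMP2 (-1.57), ADAMTS9 (-1.46), ADAM15 (-1.35) and ADAMTS7 (-1.02). The ADAMTS7 call was lost without replicate 1 of the co-culture or of the PA6 arrays, with -0.67 as the smallest such difference, under array weights and under both normalizations without background correction. ADAMTS16, which no co-culture array detected, was at least 2.01-fold lower. ADAM32 was called lower too, but with no detected co-culture array and 1 of 3 detected mono-culture arrays it was near the detection limit on both sides, and no fold is given. TIMP1, MMP9 and MMP1A, with changes of 0.06, 0.10 and -0.07, were not called, and their adjusted p-values were 0.768 or more.

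Different probes of a gene gave different sizes here. ADAM15 was -1.35 by the probe used and -0.25 and 0.42 by 2 dimmer kept ones. MMP14 was -0.37 by a second probe detected on 3 arrays, and MMP24 was -0.96 by both other kept probes. Probes that were not kept are left out here, such as the second ones of ADAMTS9 and ADAMTS12, detected on 0 arrays. ADAM17, not called at -0.15, was -2.26 by its second probe. The 3 probes of ADAMTS2 gave -1.63, -1.87 and -1.88.

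Higher in co-cultures were MMP25 (at least 2.60-fold), MMP3, the membrane protease MMP15 (at least 1.24-fold), MMP17, TIMP4 and ADAMTS19. MMP15 was 6.32, 6.51 and 7.0 in co-cultures and not detected in mono-cultures (4.98, 4.80 and 4.84). MMP17 was higher by 1.46 ± 0.302 (adjusted p = 0.00044). MMP3 (at least 2.31-fold, adjusted p = 0.0964) overlapped between the groups, with replicate 2 of the co-cultures not detected. Its call was lost in 8 of 16 alternatives: without co-culture replicate 1 or 3 or any 1 of the PA6 -GFs arrays, with no filter on dim probes, with a trended robust spread and at an adjusted p under 0.05. Leaving out 1 array moved the fitted difference from 1.19 to 3.16. TIMP4 (1.25) and ADAMTS19 (1.02) were so close to the detection limit that no fold bound above 1 could be given, and ADAMTS19 was not called under any of the 3 other normalizations, or without co-culture replicate 2 or PA6 replicate 1.

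**Figure D5:**
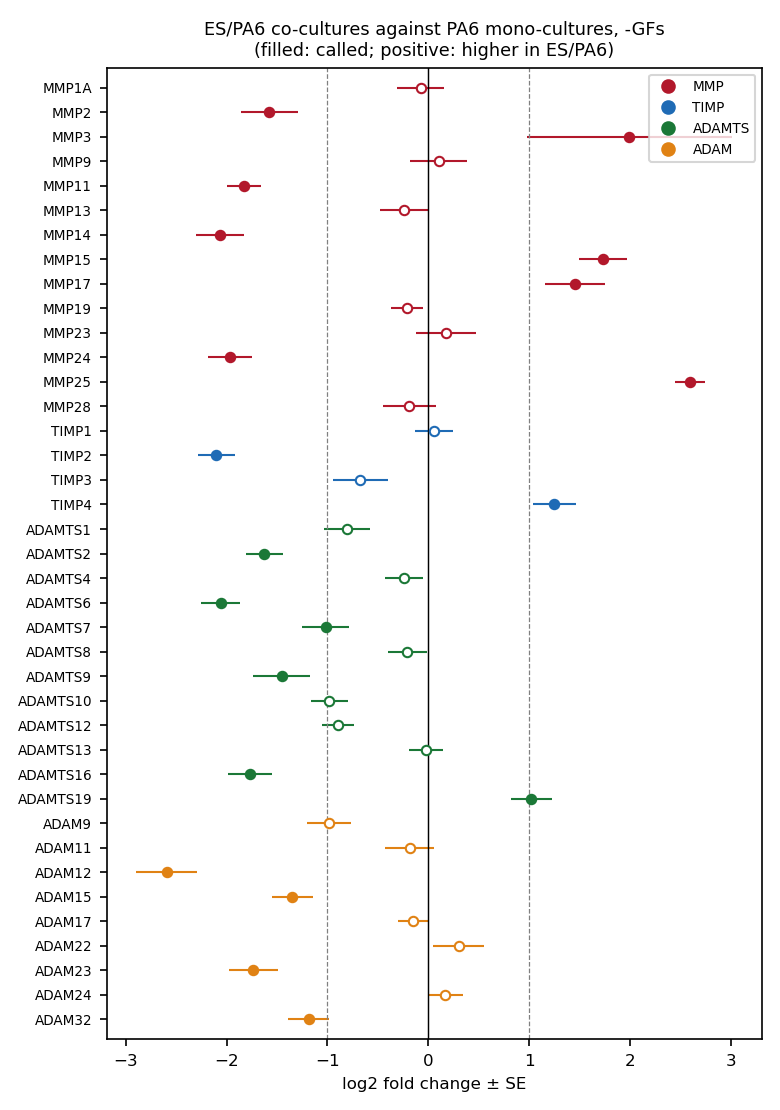
Difference in log2 intensity with SE (x axis) of ES/PA6 co-cultures from PA6 mono-cultures, both without growth factors, for the 39 genes (rows, coloured by family), 3 arrays per group. Filled points were called: 14 genes are lower and 6 higher in co-cultures. The outermost points, ADAM12 and MMP25, were not detected in 1 of the groups, so that their positions are fitted values for differences of at least 4.45-fold and 2.60-fold.

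Genes that act with these families were taken from a list of 47, of which 37 were tested. The list was chosen with earlier results of these data known, so that its shares of calls are a description only. With FGF2 in mono-cultures 6 rose and 3 fell (24.3% called, beside 5.27% of all genes). Higher were the substrate versican (VCAN, 2.34 ± 0.254, adjusted p = 1.07e-05), the tissue plasminogen activator PLAT (1.45), the lysosomal protease CTSL (1.39), the urokinase receptor PLAUR (1.31), the membrane metalloprotease MME (1.23) and BMP1 (1.10), the procollagen C-protease. Lower were ADAMTSL1 (-2.64) and ADAMTSL4 (-1.81), which resemble ADAMTS proteins but lack the protease domain, and the aminopeptidase ANPEP (-1.05). In co-cultures 1 rose with FGF2 (CTSL, 1.25) and 1 fell (ADAMTSL3, -1.54), or 5.41% beside 3.34% of all genes. BMP4 called 0 of the 37 in either culture type, with 7 in co-cultures and 12 in mono-cultures at an unadjusted p under 0.05 by limma (10.9% and 12.6% of all genes). Between the culture types 2 were higher and 17 lower in co-cultures (51.4% called, beside 39% of all genes), the membrane-anchored MMP inhibitor RECK among them (-1.67).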

How the data were processed

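Gene expression was measured in 18 cultures on day 3, in 6 groups of 3 taken from the labels. The authors hybridised biotin-labelled cRNA to bead arrays and exported with GenomeStudio (version 2011.01 in the submitters' processing notes) a non-normalized linear intensity per probe, which was deposited in 1 table of 45281 probes. Beside each intensity stands a deposited detection p-value against negative control beads. In 10 of the detection columns, treated as a deposited score, 5 stray shifted lines after the last probe held other values and were left out. The columns were matched to samples by name, and the number of columns left unmapped was 0.

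Intensities were corrected and normalized with neqc (limma 3.58.1, R 4.3.3; offset 16, which shrinks fold changes of dim genes). Kept were probes detected (p under 0.05) on 3 or more arrays, and the brightest probe stood for its gene. The study's methods name a cubic spline normalization instead, which was an alternative. A single limma model of 6 group means gave all contrasts and interactions, with Benjamini-Hochberg adjustment over 16446 genes. A call needed a log2 fold change over 1 in size and an adjusted p under 0.1, as in the study's methods. A probe not detected on any array of a group gave only a bound ("at least"), against the lowest detected signal of each array. No counts lie behind intensities, and 3 arrays per group limit the precision: an exact permutation of 3 against 3 cannot go below a p of 0.1. The fit was tested on simulated data with independent arrays, which do not hold the shared deviations of replicate numbers and so do not test their effect.

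Replicate numbers were checked by correlating deviations from group means over all genes. The 9 co-culture pairs gave 0.325 to 0.521, the 9 mono-culture pairs 0.0628 to 0.164, and the 27 pairs across culture types -0.0248 to 0.175, with 8 of the 9 mono-culture pairs over 0.1. The labels give each biological replicate a well of every condition, and the block was fitted within each culture type.

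Alternatives were other background and normalization methods, detection filters, the mean of a gene's probes, subsets of arrays, the replicate block, other spread models and thresholds, and leaving out each array. Named with values were all members called for a growth factor, the TIMPs, MMP2, MMP14, ADAM10, ADAM17, ADAMTS1, ADAMTS2, ADAMTS4 and ADAMTS5 where tested, the largest differences between culture types, and members whose probes disagreed. Members, lists and rules were chosen with earlier results of these data known. All 39 gene names of the array table are current symbols in RefSeq (GRCm38.p6). Marker lists of neural cells (2 of 5 tested) and endothelium (5 of 6) were also summed. Protein sequences were not used here.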

Additional observations from a re-analysis of the deposited data

Results flagged for a closer look

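For 3 members the FGF2 change differed between the culture types in a test of the difference itself (limma interaction, co-cultures minus mono-cultures, log2). ADAMTS1 had -2.87 ± 0.319 (adjusted p = 3.5e-05), with all 3 FGF2 arrays above all 3 -GFs arrays in mono-cultures and below them in co-cultures. Its BMP4 change in co-cultures was also negative (-0.68, not called). MMP25 had -2.22 ± 0.206 (adjusted p = 6.58e-06), and in mono-cultures its probe was not detected with or without FGF2. MMP17 had 1.43 ± 0.426 (adjusted p = 0.0442), with 2 of the 3 FGF2 arrays of the mono-cultures not detected. Its mono-culture change was -0.99 with FGF2 and -0.94 with BMP4, neither called. The share of all genes with such a difference was 7.39%, against 3 of 39 members.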

How the results depend on the processing

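Across the alternatives no called change of a named member reversed its sign. Changes that were not called could, such as that of MMP3 with BMP4 in co-cultures (0.06, from -1.10 to 1.19). Of the comparisons of a member's call with the reported one 3176 were alike, 52 lost the call and 57 gained it. A change called in neither fit counts as alike whatever its size, so these counts do not measure how stable the reported calls were. Member counts moved by over 1.5 times in the following cases. With detection required on all 18 arrays 18 members were tested, and 2 were called for FGF2 in co-cultures, 4 for FGF2 and 0 for BMP4 in mono-cultures, 3 between the factors in mono-cultures and 10 between the culture types. This filter also left 125 genes called in all for FGF2 in co-cultures, against 550 as reported. Without a fold threshold 8 (FGF2, co-cultures), 3 (BMP4, co-cultures), 11 (FGF2, mono-cultures), 2 (BMP4, mono-cultures), 11 (between factors, mono-cultures) and 7 (FGF2 interaction) members were called. Array weights gave 2 for BMP4 in mono-cultures, where MMP17 joined ADAM12, and 2 for the BMP4 interaction. The replicate block within each culture type gave 5 for the FGF2 interaction and 2 for the BMP4 interaction, and beyond the changes given beside the results it changed no other call. Such a block cannot give a difference between the culture types, and a block shared by both, added after the data were seen, called the same 20 members there. Leaving out 1 array at a time gave 0 to 2 calls for BMP4 in co-cultures (2 without ES/PA6 -GFs replicate 3), 2 to 7 for the FGF2 interaction (7 without ES/PA6 -GFs replicate 3, and 5 without ES/PA6 FGF2 replicate 3 or PA6 FGF2 replicate 1 or 2) and 0 to 3 for the BMP4 interaction (3 without ES/PA6 -GFs replicate 3). Other counts stayed within 1.5 times, at 4 to 6 for FGF2 in co-cultures, 5 to 8 in mono-cultures and 15 to 25 between the culture types. Quantile normalization without background correction and the cubic spline lost ADAM32 and ADAMTS12 for FGF2 in mono-cultures, MMP25 and ADAMTS4 between the factors in co-cultures, ADAM32 between the factors in mono-cultures, the MMP17 interaction, and ADAMTS16, ADAM32, TIMP4, ADAMTS7 and ADAMTS19 between the culture types. The mean of a gene's probes lost ADAM15 (-0.39) and gained ADAM17 (-1.21) between the culture types. Probes near the detection limit have only bounds, and 3 arrays per group limit every SE.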

Other observations

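The endothelial markers, of which 5 of 6 were tested, summed to 789 to 1352 in co-cultures without growth factors, 1478 to 2166 with FGF2 and 1572 to 2416 with BMP4, so both factor groups lay above the group without factors. In mono-cultures the sums were 446 to 541, 313 to 343 and 375 to 406. Of these markers 0 were called with FGF2 by limma (2 at an unadjusted p under 0.05) and 1, PECAM1, with BMP4 in co-cultures. The sums rest mainly on PECAM1, whose mean was 8.99 without factors, 9.97 with FGF2 and 10.15 with BMP4 (log2), and on TEK (8.5, 9.1 and 8.86). With FGF2 3 of the 5 had a positive change, and KDR (-0.21) and ICAM2 (-0.44) a negative one. CDH5 was near the detection limit in these co-culture groups, with means of 5.70, 5.93 and 6.03 and detection on 1, 2 and 1 of 3 arrays. Whether the PECAM1 signal came from endothelial cells was not tested. The neural markers, of which 2 of 5 were tested, summed to 228 to 1208, 159 to 1080 and 150 to 306 in the same co-culture groups. MMP1A, the rodent interstitial collagenase, lay between 7.27 and 8.35 on all 18 arrays and was called in no comparison, while its neighbour MMP3 ranged from 5.04 to 10.18. The MMP1A values rest on a single probe, since the other probes of MMP1A were detected on 0 arrays.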
